A study of Mus musculus with 4 samples.

Results

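The genes described here encode the nuclear-encoded subunits of the oxidative phosphorylation system, grouped by complex I to V, together with cytochrome c. They were chosen by gene symbol alone, from all probes of the deposited value table. The platform symbol had to start with Nduf, Uqcr, Cox4i, Cox5, Cox6, Cox7, Cox8 or Atp5, or be Sdha, Sdhb, Sdhc, Sdhd, Cyc1 or Cycs. The choice gave 110 of 25697 probes, for 87 of the 16593 genes named on the array. Complex I had 34 genes, complex II 3, complex III 9, complex IV 18, complex V 16 and cytochrome c 1. Another 5 genes encode assembly factors of complex I (Ndufaf1, Ndufaf3, Ndufaf4, Ndufaf5 and Ndufaf7), and Ndufs5-ps is a pseudogene whose probe may also read its parent gene. Ndufa4 is counted under complex I by its name, although its protein is known as a subunit of complex IV. Sdha was sought, but no probe carried that symbol. The subunits encoded by mitochondrial DNA are not analysed here.

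Hearts came from C57Bl6 mice of 8 to 9 weeks in which both copies of the mineralocorticoid receptor gene were floxed (MR flox/flox) and had all lost 1 kidney. The WT groups carried MR flox/flox and were labelled wild type, while the CM-MRKO groups carried MR flox/flox with MLC2v Cre, a recombinase driven by the promoter of the ventricular myosin light chain gene and therefore aimed at heart muscle cells. Each genotype received either vehicle or DOC/salt, a deoxycorticosterone and salt load that activates the receptor, for 8 days. Each of the 4 groups is 1 pool of RNA from 8 whole hearts, measured on 1 array. There is no replicate check on any difference, no test between groups is possible, and the only error given is a technical spread between probes of the same gene. A group with MLC2v Cre and no floxed alleles is not part of the comparisons, and the receptor gene itself is not analysed here.

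Oxidative phosphorylation takes electrons from NADH at complex I and from succinate at complex II, passes them through ubiquinone, complex III and cytochrome c to complex IV, and uses the resulting proton gradient to make ATP at complex V. Heart muscle depends on this pathway for nearly all of its ATP and is packed with mitochondria. The subunits are made from nuclear and mitochondrial genes, and the nuclear genes are known to be driven by the factors NRF1, GABP and the oestrogen-related receptors with the coactivator PGC-1 alpha.

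Values are deposited bead intensities, and log2 differences come from background-corrected, quantile-normalized intensities. A probe was detected where it was brighter than nearly all of 1341 probes of chemosensory receptor genes, a limit between 108.8 and 121.8 intensity units. The WT vehicle array stood apart from the others by its upper quartile of intensity, 120.2 against 147.6 to 161.4. Its median of 91.5 was close to the 92.6 of WT DOC/salt, against 98.6 and 102.7 for CM-MRKO. On the WT vehicle array 93.3% of detected genes had their lowest deposited intensity. Of the 77 members detected on any array, 69 did so as well. Results that rest on it are therefore given apart from those that do not. Defining heart muscle markers were present, with 6 of 7 detected and a summed intensity of 57523, 64712, 72809 and 79272. Here and below, the order of values is WT with vehicle, WT with DOC/salt, then CM-MRKO with vehicle and with DOC/salt. Of the heart muscle markers, Ryr2 lay below the limit on every array. Pln, at 94.6, 234.9, 258.4 and 248.1, lay below it on WT vehicle only. The fat markers Adipoq and Plin1 were not detected. Of the brown fat markers, Ucp1 was not detected and Cidea was, on all 4 arrays. Of the skeletal muscle list, Myh1 and Myh4 were not detected, Ckm was on 4 arrays, Tnni2 on 3 and Actn3 on 1.

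Of the 87 members, 70 were detected on all 4 arrays, 7 on some and 10 on none. The median member intensity was 5002.8, 7225.3, 7519.3 and 8001.7 on the 4 arrays, against array medians near background. Members made up 38 of the 104 detected probes with a mean intensity of at least 10000 over the arrays other than WT vehicle. The undetected genes were Ndufab1, Ndufs1, Ndufaf3, Sdhd, Uqcrfs1, Uqcrq, Atp5k and the complex IV genes Cox6b2, Cox7b2 and Cox8c, which are known as testis forms. Ndufs1, the iron-sulfur subunit of the NADH-oxidising arm, read 81.1, 85.5, 85.6 and 82.9. Uqcrfs1, the Rieske iron-sulfur protein of complex III, read 90.9, 91.6, 95.7 and 92.9. Both lay below the limit on every array, so these readings bound the signal of the probes and give no level.

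The first comparison asked whether DOC/salt changed these genes in hearts whose muscle cells carry Cre. None of 77 members passed 1.5-fold in CM-MRKO hearts, 0 higher and 0 lower, where 0.629% of all 6673 genes tested were higher and 0.435% lower. The median difference over members was 0.02 on the log2 scale, against 0.01 over all genes, with a technical spread of 0.17. With so few calls among all genes, a count of 0 members is near the background. As whole-heart RNA was measured, fewer cells of a type and less RNA per cell cannot be told apart in any difference given here.

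At 1.2-fold, a limit added after the data were seen, 3 members were higher (9.5% of all genes) and 3 lower (7.97%). Ndufb9 and Ndufb10, accessory subunits of the membrane arm of complex I, differed most. Ndufb9 read 109.2, 256.7, 217.4 and 291.5 and was higher by 0.46 on the log2 scale with DOC/salt in CM-MRKO. Ndufb10 read 177.4, 243.8, 246.8 and 332.2 and was higher by 0.43. Both were highest on the CM-MRKO DOC/salt array. Cox6a2, the heart and skeletal muscle form of a complex IV subunit, read 23673.1, 19863.5, 22919.7 and 28604.6 and was higher by 0.28. On the lower side, Ndufb11, another accessory subunit, read 98.6, 105.0, 125.2 and 118.3. It was detected on the CM-MRKO vehicle array only, which was at least 1.17-fold brighter. Ndufb5, of the same membrane arm, read 309.0, 569.4, 586.3 and 527.7, a difference of -0.27. The assembly factor Ndufaf1 read 341.1, 647.9, 687.7 and 613.4, a difference of -0.28.

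By complex, the median differences were 0.02 for complex I, -0.01 for II, -0.03 for III, 0.01 for IV and 0.01 for V. The signs of the medians of II, III and IV turned under at least 1 other scaling, with values from -0.03 to 0.07. The detected assembly factors of complex I had a median of -0.16, with 4 of 4 below 0. The extremes of the remaining complexes were small. In complex II, Sdhc, a membrane anchor, read 2675.1, 5303.4, 5421.0 and 6159.9 (0.12), and Sdhb, the iron-sulfur subunit, read 1389.2, 2324.7, 2495.1 and 2371.5 (-0.14). In complex III the differences ran from -0.24 for the core protein Uqcrc2 to 0.14 for the small subunit Uqcr11, whose readings were 7848.3, 13153.0, 14575.7 and 13072.2 and 9830.4, 12308.3, 13995.3 and 16295.8. In complex V they ran from -0.15 for Atp5d, a subunit of the rotating stalk, to 0.18 for Atp5g2, a source of the membrane c-ring.

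A further comparison took both genotypes under DOC/salt. Again 0 of 76 members were higher and 0 lower by 1.5-fold, where 0.896% of 6693 genes were higher and 0.956% lower. The median over members was -0.01, against 0.02 over all genes, with a technical spread of 0.18. The medians were 0.01 for complex I, -0.00 for II, 0.02 for III, -0.06 for IV and 0.02 for V. In complex IV 10 of 15 members lay below 0, although its median was 0.10 in the deposited intensities, where the median of all genes was 0.13.

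At 1.2-fold, 4 members were higher in CM-MRKO (11.9% of all genes) and 3 lower (9.8%). The higher members were Ndufb10 (0.43), Cox6a2 (0.32), the assembly factor Ndufaf4 (0.27) and Atp5b (0.33), the catalytic beta subunit of ATP synthase. Atp5b read 20274.6, 18005.3, 21690.6 and 24472.5, lowest on the WT DOC/salt array. The lower members were in complexes IV and V. Cox6c, a small membrane subunit, read 682.2, 1419.2, 1113.1 and 1198.4 and differed by -0.37. Cox4i1, the common form of the regulatory subunit 4, read 11876.0, 16686.8, 17310.3 and 15353.4 and differed by -0.32. Atp5pb, the peripheral stalk subunit b, read 7382.4, 8623.7, 8179.8 and 7779.8 and differed by -0.27. In normalized values, Cox6c and Cox4i1 were both highest on WT DOC/salt, and Cox4i1 was lowest on CM-MRKO DOC/salt. In complex III the range ran from -0.16 for Uqcr10 to 0.23 for Uqcr11.

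Taking the 3 arrays other than WT vehicle, the members varied little. Over 75 members detected on all 3, the median range was 0.14 on the log2 scale and the widest 0.46 (Ndufb9). In all, 64 of 75 members (85.3%) stayed within 1.2-fold, against 66.9% of 5914 genes. Among genes with a mean intensity of at least 1000 on these arrays, 88.3% of 60 members and 82.2% of 1104 genes stayed within 1.2-fold. The median range by complex was 0.11 for I, 0.13 for II, 0.17 for III, 0.14 for IV and 0.21 for V, and 0.24 for the 4 assembly factors. The ATP synthase genes and the assembly factors thus had the wider ranges, with no test of the difference.

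**Figure D1:**
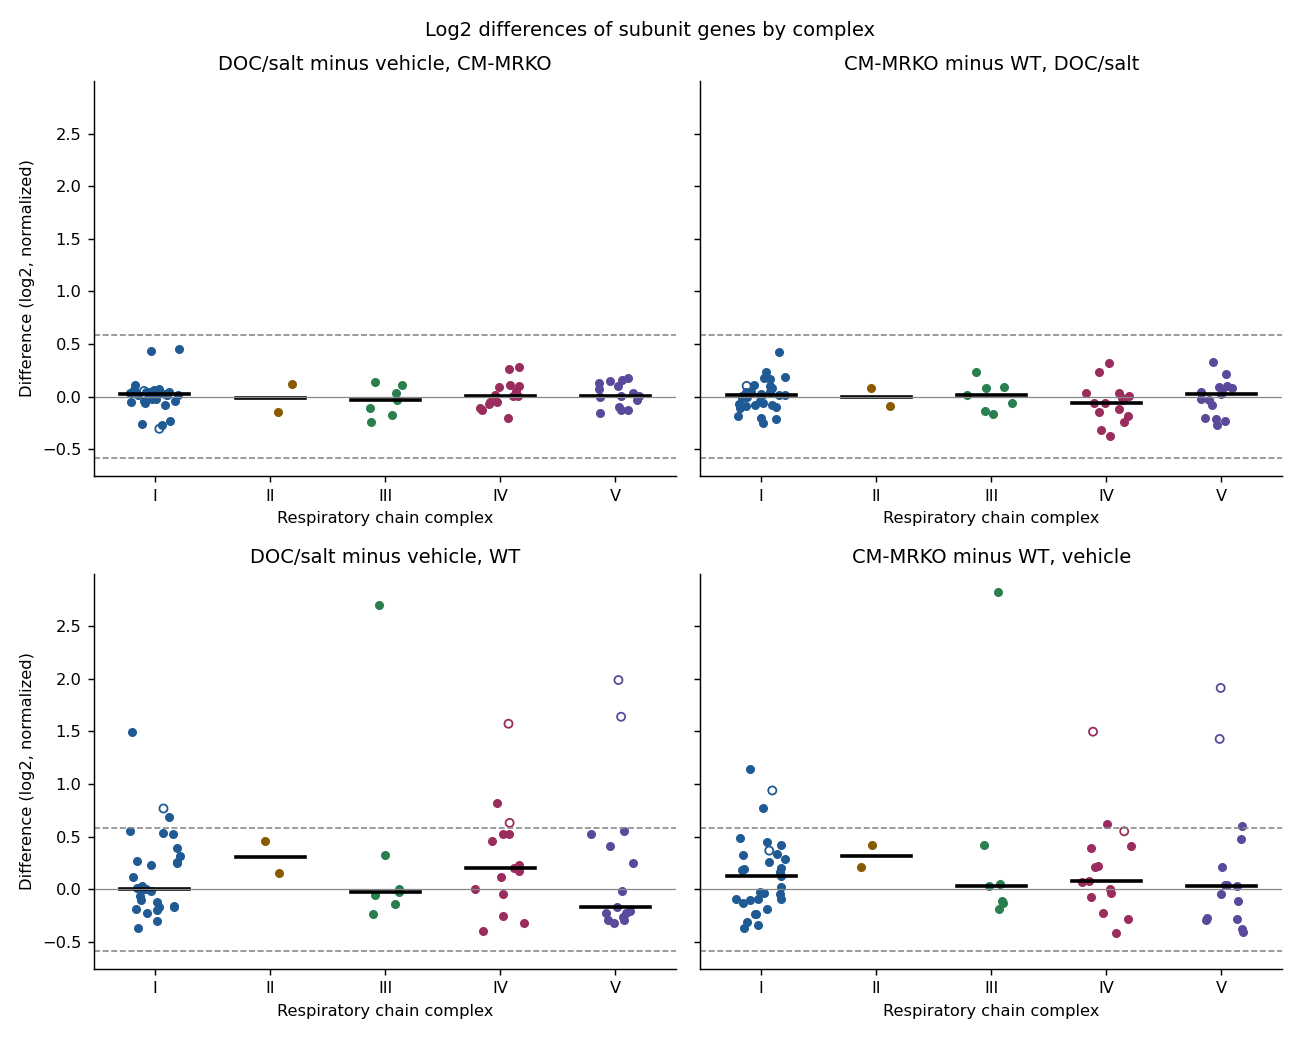
Log2 difference (normalized) of each structural member in the 2-array comparisons, by complex, with bars at the medians, dashed lines at 1.5-fold, and open circles for genes detected on 1 of the 2 arrays. In the comparisons without the WT vehicle array 0 members pass the limits, and in those with it 9 members are higher, led by Uqcrb.

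The remaining comparisons rest on the WT vehicle array and share it, so their values are set side by side and are not independent. With DOC/salt in WT hearts, 9 of 75 members were higher (8.98% of 6391 genes) and 1 lower (4.08%), with a median of 0.01 against -0.05 over all genes and a technical spread of 0.34. In CM-MRKO against WT under vehicle, 9 of 76 members were higher (7.59% of 6366 genes) and 0 lower (2.56%), with a median of 0.04 against -0.04 and a spread of 0.34. At 1.2-fold, 25 members were higher (23.2% of all genes) and 10 lower (25.1%) in WT, and 24 higher (21.7%) and 13 lower (22.1%) under vehicle. At 1.5-fold with background correction, 12% of members against 8.98% of all genes were higher in WT, and 11.8% against 7.59% under vehicle. The shares lay further apart without background correction. Without it, 9.33% of members against 3.76% of all genes were higher in WT, and 10.5% against 3.14% under vehicle. Among genes detected on both arrays, with background correction, the shares were 5.71% against 6.16% in WT and 7.14% against 5.08% under vehicle. Scaling changed these counts: with arrays scaled to their detected probes, 8 members were higher and 8 lower in WT (7.39% and 4.71% of all genes), and 8 higher and 1 lower under vehicle (6.24% and 3.16%). With median scaling 23 and 24 were higher and 0 lower (30.7% and 27.4% of all genes higher), while the median of all genes itself moved to 0.39 and 0.37.

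Medians of the complexes were more spread in the comparisons with WT vehicle. With DOC/salt in WT, the median was 0.01 for complex I, -0.32 for its assembly factors, 0.30 for II, -0.02 for III, 0.20 for IV and -0.17 for V. Under vehicle, CM-MRKO against WT gave 0.13, -0.31, 0.31, 0.03, 0.08 and 0.03 in the same order. Complex II was above 0 in both under every scaling, on 2 detected genes. In WT the signs of all other medians turned with the scaling: complex V was 0.21 with median scaling and -0.23 with arrays scaled to detected probes, and complex IV was 0.30 and -0.14. Within complex I the differences in WT ran from -0.36 (Ndufc2, an accessory subunit, at 5823.2, 6167.1, 6928.5 and 7220.0) upward, and its 30 tested genes lay 15 above and 12 below 0.

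On the WT vehicle array, 9 of 77 members lay at least 1.5-fold below each of the other arrays, against 4.55% of 6836 genes. In normalized values it was the lowest array for 37 members, against 32.3% of genes. Of the 9, Ndufb4 was detected on the CM-MRKO DOC/salt array only, so it has no bound and is not described as low, and Atp5a1, Atp5e, Cox7b and Ndufb2 were not detected on WT vehicle. They passed the detection rule through arrays where they were brighter. Among the 70 members detected on all arrays 4 lay below in this way (5.71%), against 3.22% of 5467 genes: Uqcrb, Cox5a, Ndufs3 and Ndufb9. No member stood 1.5-fold below the rest on any other array, where 0.117%, 0.0146% and 0.0293% of genes did. The 9 came from complexes I, III, IV and V: Ndufb2, Ndufb4, Ndufb9, Ndufs3, Uqcrb, Cox5a, Cox7b, Atp5a1 and Atp5e.

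In complex III, Uqcrb, a small subunit next to the ubiquinone pocket, read 132.0, 781.5, 862.2 and 902.2. It was higher by 2.70 with DOC/salt in WT and by 2.83 in CM-MRKO under vehicle, the largest differences among the members. The other 3 arrays were close together, with a DOC/salt difference in CM-MRKO of -0.03. Among other complex III members, Uqcrc2 was also lowest on WT vehicle, with differences of 0.33 and 0.42. Cyc1, the haem-bearing cytochrome c1, read 9129.3, 10138.5, 11449.9 and 11328.8 and went the other way (-0.24 and -0.11).

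In complex V, Atp5a1, the alpha subunit of the catalytic head, read 102.9, 285.1, 278.9 and 312.9. Its WT vehicle reading lay below the detection limit, so it was at least 3.29-fold higher with DOC/salt in WT and at least 3.13-fold higher in CM-MRKO under vehicle, bounds that fell to 2.16 and 2.08 without background correction. Atp5e, the epsilon subunit of the rotating stalk, read 105.5, 251.1, 229.5 and 259.4, at least 2.79-fold and at least 2.41-fold higher (1.91 and 1.72 without background correction). Partners of Atp5a1 in the catalytic head gave other values: Atp5b differed by -0.29 with DOC/salt in WT, and Atp5c1, the gamma subunit, read 8413.0, 9433.6, 9625.4 and 10322.5 (-0.22). Atp5g3, a c-ring gene, read 11261.5, 20383.1, 23672.6 and 22814.7, higher by 0.52 with DOC/salt in WT and by 0.60 in CM-MRKO under vehicle. Its c-ring relatives Atp5g1, at 18059.0, 17955.6, 22480.6 and 21444.0, and Atp5g2, at 2312.5, 2734.3, 2854.1 and 3383.3, differed by -0.20 and -0.32 in WT. Of the 3 genes, which encode the same mature protein, only Atp5g3 was lowest on WT vehicle after normalization, and the WT direction of Atp5g2 turned with median scaling (0.05).

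In complex IV, Cox5a, a subunit on the matrix side, read 4441.5, 11499.5, 10437.8 and 11518.5. It was higher by 0.82 with DOC/salt in WT and by 0.62 in CM-MRKO under vehicle, with all readings far above the detection limit. Its partner Cox5b, which binds zinc, read 9826.2, 15191.9, 15648.2 and 16271.1, a difference of 0.24. Cox7b, a small membrane subunit, read 102.1, 223.8, 219.6 and 246.5, at least 2.40-fold and at least 2.28-fold higher (1.71 and 1.65 without background correction). Cox7a2 read 98.5, 132.3, 134.6 and 146.6, at least 1.11-fold and at least 1.05-fold higher, so its call by 1.5-fold in WT rests on a value below the detection limit.

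In complex I, Ndufs3, a core subunit of the ubiquinone-reducing module, read 1611.4, 3773.8, 4138.7 and 4360.5, higher by 0.68 and 0.77. Ndufb9 was 2.82-fold and 2.22-fold higher, differences of 1.498 and 1.148 on the log2 scale that were 0.949 and 0.696 without background correction. Its WT vehicle reading of 109.2 lay just above the detection limit of 108.8. Ndufb2, at 106.5, 165.5, 185.1 and 198.0, was higher by at least 1.58-fold and at least 1.78-fold (1.29 and 1.39 without background correction). Ndufb4 read 89.7, 108.6, 116.3 and 124.6 and was detected on the CM-MRKO DOC/salt array only. Ndufb9 and Ndufs3 were low on WT vehicle where detected, Ndufb2 was not detected there, and the other core subunits differed less. Ndufv1, which binds NADH, read 6669.9, 10642.8, 11888.4 and 11954.1 (0.23 and 0.32). Ndufv2, its iron-sulfur partner, read 5241.3, 10485.1, 10457.3 and 11347.4 (0.52 and 0.45). Among the iron-sulfur subunits beside Ndufs3, Ndufs7 read 5002.8, 10371.0, 10040.8 and 10846.0 (0.55 and 0.42). Ndufs8, also there, read 4565.1, 7223.2, 8067.5 and 8001.7 (0.12 and 0.20). All 4 had their lowest deposited intensity on WT vehicle and none passed 1.5-fold.

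The member that was lower with DOC/salt in WT was Ndufaf4, an assembly factor, at 1051.5, 947.6, 1195.1 and 1210.1 (-0.84). It was lowest on the WT DOC/salt array and between 1051.5 and 1210.1 on the others. Its difference in WT was -0.35 with median scaling and -0.15 in deposited intensities, both within 1.5-fold. Cycs, cytochrome c itself, read 119.2, 173.6, 174.3 and 194.4 and differed by 0.39 and 0.34, within 1.5-fold.

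Promoters are shown for 4 members that hold letters of a factor known to drive these genes: Atp5e, Ndufs3 and Atp5g3, which were low on the WT vehicle array, and Ndufb4, detected on 1 array only, as an example with several NRF1 matches. They come from RefSeq on GRCm38.p6, as the 250 bases before the annotated start, and 71 of the 87 members had an entry. Capitals mark the letters found: CCGGAAG for GABP in Atp5e and Ndufs3, the NRF1 palindrome in Ndufb4, and TCAAGGTCA for the oestrogen-related receptors in Atp5g3, each read on either strand.
Atp5e (chr2:174464102-174464351, minus strand): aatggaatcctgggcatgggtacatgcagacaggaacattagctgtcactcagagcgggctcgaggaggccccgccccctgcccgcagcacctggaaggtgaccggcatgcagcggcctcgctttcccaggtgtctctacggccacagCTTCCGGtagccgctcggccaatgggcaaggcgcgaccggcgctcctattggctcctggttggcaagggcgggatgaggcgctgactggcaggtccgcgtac
Ndufs3 (chr2:90904722-90904971, minus strand): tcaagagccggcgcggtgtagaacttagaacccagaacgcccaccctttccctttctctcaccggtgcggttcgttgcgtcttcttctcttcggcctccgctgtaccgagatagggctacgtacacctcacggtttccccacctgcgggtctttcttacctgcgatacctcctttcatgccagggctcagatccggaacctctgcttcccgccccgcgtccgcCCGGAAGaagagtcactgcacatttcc
Ndufb4 (chr16:37654369-37654618, minus strand): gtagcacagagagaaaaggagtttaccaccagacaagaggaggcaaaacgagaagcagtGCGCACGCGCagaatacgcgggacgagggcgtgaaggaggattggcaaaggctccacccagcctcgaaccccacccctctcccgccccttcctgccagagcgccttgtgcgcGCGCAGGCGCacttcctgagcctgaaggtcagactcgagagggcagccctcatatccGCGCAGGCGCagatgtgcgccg
Atp5g3 (chr2:73911327-73911576, minus strand): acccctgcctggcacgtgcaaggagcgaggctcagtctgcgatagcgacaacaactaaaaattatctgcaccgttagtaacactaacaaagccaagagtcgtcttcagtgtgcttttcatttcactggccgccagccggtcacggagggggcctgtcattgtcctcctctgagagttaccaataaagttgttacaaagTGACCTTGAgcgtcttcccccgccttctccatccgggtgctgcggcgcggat

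The GABP letters begin 102 bases before the start in Atp5e and 27 before in Ndufs3. The NRF1 letters begin 191, 79 and 22 bases before the start in Ndufb4, and the oestrogen-related receptor letters 52 before in Atp5g3. Searched over 250 bases before to 50 after the start, on both strands, the NRF1 letters lay in 17 of 76 member promoters (22.4%), against 4.60% of 32851 promoters. Atp5g3 was among these, with a match that does not lie wholly within the printed bases. GABP letters lay in 17 (22.4%), against 8.86%, and oestrogen-related receptor letters in 2 (2.63%), against 0.423%. The steroid receptor palindrome, which the mineralocorticoid receptor can bind, lay in 0 of 76, against 0.475% of all, and 0 matches of different motifs overlapped. Matches describe letters in this window and say nothing of binding, and letters absent from it say nothing of the factor.

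Several subunits of complex IV exist in tissue-specific forms. Cox4i2, known from lung and low oxygen, read 129.4, 138.0, 142.2 and 167.5, with differences of -0.39 with DOC/salt in WT and 0.26 in CM-MRKO; its direction in WT turned with median scaling (0.04). Cox6a1, the common form, read 5073.1, 6118.7, 6677.2 and 6859.7 (-0.25 in WT), while the muscle form Cox6a2 differed by -0.32. Cox6b1 read 26238.7, 24697.4, 27683.2 and 27356.5 (0.00). The heart form Cox7a1 read 16574.4, 21272.3, 21893.2 and 22775.4 (0.20). Cox8b, also a heart form, read 12756.5, 15994.4, 17498.2 and 17112.9 (-0.04), and the common Cox8a read 2842.7, 5907.0, 5627.1 and 6230.5 (0.52). None of these passed 1.5-fold in a 2-array comparison. Cox6a2 passed 1.2-fold in each of these comparisons and the heart forms Cox7a1 and Cox8b in none.

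For the DOC/salt response of CM-MRKO minus that of WT, which uses all 4 arrays, 3 of 77 members were higher (6.77% of 6836 genes) and 12 lower (10.3%), with a median of -0.17 against 0.05 over all genes and a spread of 0.37. The higher members were Ndufaf4 (0.76), Cox4i2 (0.66) and Cox6a2 (0.60). The lower ones were Uqcrb (-2.73), Ndufb9 (-1.04), Cox5a (-0.77), Ndufs3 (-0.73), Atp5d (-0.70), Cox7a2l (-0.65), Atp5g3 (-0.62) and Ndufaf1 (-0.61), with Atp5a1, Atp5e, Cox7b and Ndufb2, which were not detected on WT vehicle and so have no exact difference. Over the 70 members detected on all arrays, 3 were higher and 8 lower, against 5.96% and 7.61% of 5467 genes. Cox7a2l, known as a factor that joins complexes III and IV, read 1634.8, 3514.0, 3333.5 and 3208.9. Atp5d read 2052.5, 4317.1, 4303.1 and 4158.0. Both were low on WT vehicle and close together on the others. Scaled to detected probes the split was 6 higher and 11 lower with a median of 0.11 (8.41% and 8.65% of all genes). With median scaling it was 1 and 25 (1.02% and 29.2%), and with deposited intensities 0 and 27 (0.0293% and 20.3%). Both the split and the sign of the median thus changed with the scaling. At 1.2-fold, 11 members were higher (28.1% of all genes) and 31 lower (24.6%).

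The departure of WT vehicle was also set beside brightness. Of 15 member probes with a mean intensity under 300 on the other 3 arrays, 9 lay 1.5-fold or more below their mean there, of which 7 were not detected on WT vehicle and entered through the arrays where they were brighter. Of all 5478 probes that dim, 435 did. Among probes that dim but detected on all arrays, 2 of 6 member probes and 115 of 3512 probes did, with medians of -0.26 and 0.11 on the log2 scale. Among 23 member probes of 15000 or more, 0 did, with a median of 0.04. The rank correlation between brightness and the departure of WT vehicle was 0.22 over 92 member probes and 0.02 over 9195 probes, which share the array. In deposited intensities the same correlations were 0.30 and -0.64. Whether brightness, the pooled animals or the array set these values was not tested. Markers of other cells did not move together on that array. Of 5 fibroblast genes, each detected on at least 1 array, Dcn (395.2 against 3886.7 on WT DOC/salt; 2.87) and Pdgfra (0.74) were higher with DOC/salt in WT, while Col1a1, Col1a2 and Lum gave -0.00, -0.37 and -0.18. The 5 summed to 1522.3, 5468.0, 5749.6 and 5949.7, most of it Dcn. Among the 3 red cell genes with a probe, Alas2 gave 0.93 and Hba-a1 -0.18, and Hbb-bt was not detected on WT vehicle. The 4 endothelial genes, detected on 2 to 4 arrays, had a median of -0.41. Their part in the result was not tested.

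**Figure D2:**
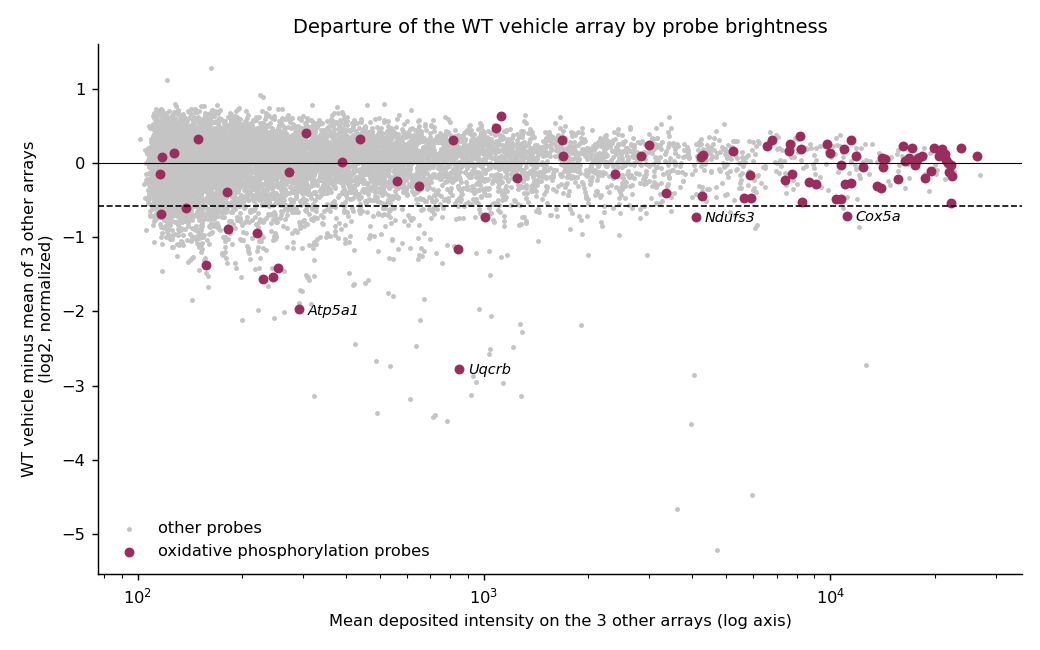
Departure of the WT vehicle array from the mean of the other 3 (log2, normalized) against mean intensity on those 3 (log axis), for member probes and all other detected probes, with a dashed line at 1.5-fold lower. Uqcrb sits lowest among the members, and 9 of 15 member probes under 300 lie at least 1.5-fold below, 7 of them not detected on WT vehicle.

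Probes of the same gene show how far a difference depends on the probe. Of 17 members with more than 1 probe, 10 had at least 2 detected on all arrays, and the median disagreement between their WT responses was 0.26 on the log2 scale. Ndufs4, an accessory subunit of the NADH module, was the exception, with 4 probes whose WT responses to DOC/salt were 0.25, 0.74, 1.33 and 0.96, a disagreement of 1.07. The first probe read 4194.4, 7150.8, 7259.5 and 7721.5. Another read 265.3, 906.6, 715.8 and 903.5, and a dim one read 115.4, 215.7, 219.5 and 228.7. All 4 were lowest on WT vehicle, by unequal amounts. Ndufa5, a peripheral accessory subunit, read 13751.7, 15775.5, 15767.1 and 17092.6 on one probe (-0.22) and 90.9, 154.2, 151.4 and 166.3 on another, which was below the limit on WT vehicle and at least 1.42-fold higher with DOC/salt in WT. Atp5j, coupling factor 6 of the stalk, gave 0.25 on its chosen probe and -0.52 on another. Sdhb gave 0.15 to -0.17 over 3 probes. In the comparisons without WT vehicle the largest disagreements were 0.35 and 0.51, the latter for Ndufc1.

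**Figure D3:**
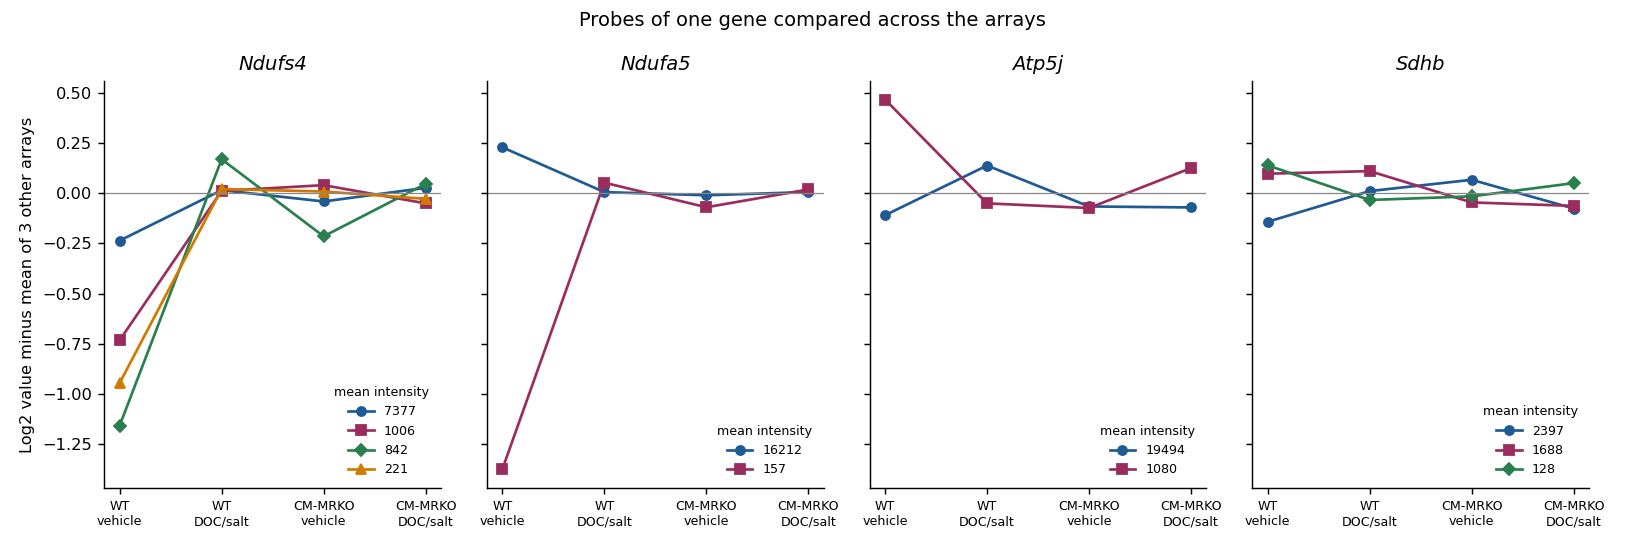
Normalized log2 value of each detected probe of 4 genes on the 4 arrays, less the probe's mean over the arrays other than WT vehicle, with mean intensities in the keys. Ndufs4 probes lie 0.24 to 1.16 below 0 on WT vehicle, and the dim Ndufa5 probe was not detected there.

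Other genes of the pathway were taken from lists by role. In CM-MRKO with DOC/salt and under DOC/salt between genotypes, 0 of 30 detected assembly factors of the complexes were higher or lower, as were 0 of 68 genes of the mitochondrial ribosome, 0 of 9 regulators of mitochondrial biogenesis and 0 of 8 carriers. With 0.435% to 0.956% of all genes called in a direction there, counts of 0 are near the background. With DOC/salt in WT, 7 of 30 assembly factors were higher and 1 lower, against 8.98% and 4.08% of all genes. Of the 7, Coa7, Sdhaf2 and Acad9 were not detected on WT vehicle and entered through the arrays where they were brighter. Cox20, which chaperones a complex IV subunit, read 115.4, 279.3, 297.8 and 361.0 (1.44), and Coa5, of the same complex, read 158.7, 426.8, 403.1 and 432.1 (1.24). Bcs1l, which inserts the Rieske protein, was the lower one (-0.60), at 357.4, 382.3, 432.2 and 517.2. Its deposited intensity was thus slightly higher with DOC/salt in WT, and its direction depends on the normalization. All of these counts rest on the WT vehicle array.

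Ppargc1a, which encodes PGC-1 alpha, read 134.1, 298.1, 285.0 and 281.3 and was higher by 1.05 with DOC/salt in WT and by 0.94 in CM-MRKO under vehicle. Tfam, the factor that packs and transcribes mitochondrial DNA, read 124.7, 225.3, 197.1 and 229.0 (0.76 and 0.45). Both were low on WT vehicle, whereas Esrra, an oestrogen-related receptor, read 893.2, 1080.6, 1179.9 and 1072.4 (-0.38 and -0.25). The contrast holds in normalized values only, as Esrra also had its lowest deposited intensity on WT vehicle. Slc25a3, the phosphate carrier that feeds ATP synthase, read 735.4, 1851.7, 1905.3 and 1965.9 (0.77 and 0.77). Of the 67 ribosome genes tested with DOC/salt in WT, 5 were higher and 1 lower, against the same 8.98% and 4.08%. Mrpl52 and Mrps27, among the 5, were not detected on WT vehicle and entered through the arrays where they were brighter. Of the 8 carriers tested there, 4 were higher and 0 lower, against the same shares of all genes. They were Slc25a3, Vdac2, Vdac3 and Ucp3, of which Ucp3 was not detected on WT vehicle. Among the 9 biogenesis genes, 2 were higher (Ppargc1a and Tfam) and 0 lower. The medians of the lists in that comparison were 0.12 for assembly factors, -0.38 for biogenesis, 0.37 for carriers and -0.10 for the ribosome.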

How the data were processed

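Whole-heart RNA, from 30 mg of tissue per the labels' protocols, was measured on Illumina bead arrays. The authors deposited a value table of intensity that still includes background and shows no sign of normalization. Partek is named, without a version, per the submitters' processing notes, other steps being not given in the sources used here. Another table was not used, because its 4 columns match no sample label, so detection was estimated from the intensities. The treatment protocol text says vehicle for all samples and was not used for grouping. Symbols came from the platform annotation, with 23978 probes naming 1 gene, 0 several and 1719 none.

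Intensities were corrected with normexp (offset 16), quantile-normalized over all probes and log2-transformed with limma 3.58.1 (R 4.3.3). Detection required that under 0.01 of the chemosensory receptor probes were as bright. A gene was its probe of highest mean, and a comparison kept genes detected on 1 or both of its arrays. For a probe undetected on the dim array, the bright value was set against the higher of its own dim value and the lowest value among detected probes. Technical spread is an SD over genes, of how far the brightest probes of a gene disagree in log2 difference, divided by the square root of 2. It leaves out animal spread. Precision is limited by the 4 arrays. The procedure was tested on simulated data. Members named were those past 1.5-fold, the extremes of each complex, core subunits, isoform pairs and genes with disagreeing probes. The members, lists and limits were chosen with earlier results of these data known. Other normalizations, filters, offsets and fold limits were tried.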

Additional observations from a re-analysis of the deposited data

Results flagged for a closer look

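For 8 members detected on all arrays, the normalized responses to DOC/salt had opposite signs in the genotypes and were, as a difference (CM-MRKO minus WT, log2), at least 1.5-fold apart. Each difference comes from 1 array per group and was not tested. Uqcrb differed by -2.73, Ndufs3 by -0.73, Atp5d by -0.70, Cox7a2l by -0.65, Atp5g3 by -0.62 and Ndufaf1 by -0.61, all with a higher value in WT under DOC/salt than under vehicle. Cox4i2 differed by 0.66 and Cox6a2 by 0.60, with a lower one. All 8 differences use the WT vehicle array, and the WT direction of Cox4i2 turned with median scaling and in deposited intensities. The CM-MRKO responses of Uqcrb (-0.03) and Ndufs3 (-0.05) lay inside the technical spread of 0.17 and were above 0 with median scaling and in deposited intensities, so their opposite signs depend on the scaling. Those of Atp5d (-0.15), Cox7a2l (-0.13) and Atp5g3 (-0.10) also lay inside that spread, although they stayed below 0 under every scaling tried.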

How the results depend on the processing

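No paired analysis was possible because each group had 1 array. Each group is 1 pool of 8 hearts, so animal spread is unknown, and a probe near the detection limit gives only a bound. In the comparisons without the WT vehicle array, 0 members were higher and 0 lower under every scaling, background and offset tried, and also with that array left out of the normalization; without a filter on dim genes, 1 undetected member (Ndufs1) was lower between genotypes under DOC/salt. With arrays scaled to their median, 23 members were higher and 0 lower with DOC/salt in WT (30.7% of all genes were higher), 24 were higher under vehicle (27.4%), and the difference of responses had 1 higher and 25 lower (29.2% of all genes lower). Scaled to detected probes, 8 were lower in WT, 1 under vehicle and 6 were higher in the difference. The deposited intensities gave 29 higher and 0 lower in WT (median 0.42), 30 higher under vehicle (median 0.48) and 0 higher and 27 lower in the difference, with all-gene medians of 0.39, 0.44 and -0.29. Of all genes, 27.1% were higher in WT and 29.8% under vehicle, and 20.3% were lower in the difference. With genes detected on every array of the comparison, 4 of 70 members were higher in WT (6.16% of all genes) and 5 of 70 under vehicle (5.08%). The calls that dropped out were of members not detected on WT vehicle: Atp5a1, Atp5e, Cox7b and Ndufb2 in both, and Cox7a2 in WT. At 1.2-fold, added after seeing the data, the counts higher and lower were 3 and 3 with DOC/salt in CM-MRKO, 4 and 3 between genotypes under DOC/salt, 25 and 10 in WT, 24 and 13 under vehicle, and 11 and 31 in the difference. The cause of the other changes was not tested. No background correction, an offset of 50 and every detected probe left all member counts within 1.5 times. The all-gene shares moved more: without background correction 3.76% of all genes were higher in WT and 3.14% under vehicle, against 9.33% and 10.5% of members.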
